A study of Mus musculus with 6 samples.

Results

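The genes described here are 33 genes of the NRF2 pathway and of antioxidant defence, read from the messenger RNA of mouse bone marrow-derived macrophages (BMDM). They were chosen by name, as the sensor and transcription factor of the pathway together with the enzymes that handle glutathione, thioredoxin, peroxide, superoxide and electrophiles, and all 33 were found among the 41549 genes of the count table. No gene was split over several rows. The macrophages came from the bone marrow of wild-type C57Bl/6 N mice, were grown with M-CSF into M0 macrophages (Mφs), and were transfected with an antisense oligonucleotide before they were polarized with IL-4 and IL-13 into M2 Mφs. The αGlu libraries (n = 3) received an antisense against 5′tRF-Glu(CTC), a fragment from the 5′ end of the glutamate tRNA with anticodon CTC, and the Ctr libraries (n = 3) received a control antisense. Both groups therefore share the genotype, the transfection and the cytokines, and the comparison asks what blocking the fragment before polarization left changed in the M2 transcriptome. The fragment itself cannot be read from these mRNA libraries, so its loss could not be checked here, and neither untransfected Mφs nor Mφs without IL-4 and IL-13 are among these libraries.

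NRF2, encoded by Nfe2l2, is a transcription factor that is held low in resting cells by KEAP1, an adaptor that brings it to a CUL3 ubiquitin ligase for degradation. Oxidants and electrophiles modify cysteines of KEAP1, NRF2 then accumulates, pairs with small MAF proteins and binds antioxidant response elements in its target genes. Because this control acts on the protein, the mRNA of Nfe2l2 and Keap1 is not a measure of NRF2 activity, and in Mφs the enzymes downstream of it, and others such as SOD2 that answer to inflammatory signals, buffer the oxidants these cells make.

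The first pair of sequences defines the treatment, since the αGlu group differs from Ctr by this oligonucleotide. The antisense is complementary to 20 of the 21 bases of its target, here both written in DNA letters, 5′ to 3′.
antisense: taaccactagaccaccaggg
target: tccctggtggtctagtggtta

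The second set shows the letters by which NRF2 targets are commonly recognised. The core of the antioxidant response element was searched as TGACNNNGC, on both strands, in the RefSeq promoter windows of 300 bases, from 250 before to 50 after the start of transcription (build GRCm38.p6). It was present in 8 of the 28 members that have such a window (28.6%), against 12.4% of all 32851 windows and 14% of all 27025 genes. The 8 were Nfe2l2, Gclm, Srxn1, Txnrd1, Prdx1, Sod1, Gsta3 and Mgst1, and in Srxn1 the letters lie past the start. Windows are printed for members whose groups did not overlap or whose absolute log2 fold change was above 0.58, where the letters lay before the start and the window overlapped no annotated exon. The 9 letters of the match are in capitals, they read on the strand of the gene for Gsta3 and on the opposite strand for Txnrd1 and Sod1, and they begin 92 bases before the start of the second Txnrd1 promoter, 56 before that of Sod1 and 121 before that of Gsta3.
Txnrd1, chr10:82859084-82859152, + strand: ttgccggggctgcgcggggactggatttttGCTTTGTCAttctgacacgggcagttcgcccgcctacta
Sod1, chr16:90220676-90220744, + strand: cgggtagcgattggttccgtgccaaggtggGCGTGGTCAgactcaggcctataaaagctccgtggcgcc
Gsta3, chr1:21240434-21240502, + strand: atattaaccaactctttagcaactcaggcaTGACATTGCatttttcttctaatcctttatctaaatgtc
A match is a run of letters and not a shown binding site, and its absence from a window of this size says nothing on the remaining sequence of a gene, where many known elements lie.

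The libraries held 17912831 to 30386653 counted reads, with a read on 14539 to 15295 genes, and the members took 0.577 to 0.696% of them. All 8 macrophage markers examined were present, with a summed level of 12172 to 13711 CPM (reads scaled to library size with TMM factors) in Ctr, 12995 in αGlu 1, 16651 in αGlu 2 and 19196 in αGlu 3. αGlu 1 stood apart from αGlu 2 and 3: over all genes tested its log2 CPM correlated at r = 0.929 with each of them, against 0.992 between αGlu 2 and 3 and 0.966 to 0.982 between αGlu 1 and the Ctr libraries. Counts, and the fold changes of genes with a value per library, are therefore given with all 6 libraries and without αGlu 1, the latter resting on only 2 αGlu libraries. The IL-4 response genes were not at 1 level either: Arg1 measured 24.3 to 45.2 CPM in Ctr, 23.4 in αGlu 1, 1884 in αGlu 2 and 1789 in αGlu 3, while Retnla measured 245 to 539 CPM in Ctr, 101 in αGlu 1 and 0.0314 and 0.0366 in αGlu 2 and 3, and Cd209d had no read in any library. The sum of 7 genes of the LPS and interferon-γ response was 17.4 to 30.4 CPM in Ctr, 300.4 in αGlu 1, 1967 in αGlu 2 and 1644 in αGlu 3, largely Ccl5, Nos2 and Il1b. Of 11 neutrophil markers, 2 (Ly6g and Retnlg) had no read in any library and the summed level, 108 to 160.0 CPM in Ctr, 187 in αGlu 1 and 538 and 608 in αGlu 2 and 3, was almost wholly Csf3r. Erythroid, lymphocyte, dendritic cell, mast cell and fibroblast markers summed to 7.95 CPM or less per list and library, and Hbb-bs, Hbb-bt, Alas2, Cd3g, Xcr1 and Cma1 had no read. Exons of Sqstm1, Prdx5, Prdx2, Keap1, Gclm and Gss share up to 19.1% of their bases with a gene on the opposite strand, and whether strand was used in the counting is not given in the sources used here. The part that any of these differences has in the results below was not tested, and in bulk RNA fewer cells of a kind and less RNA per cell cannot be told apart.

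With all 6 libraries, none of the members passed the test, and none of the 11933 genes tested did (0% called). The test was edgeR's quasi-likelihood test with Benjamini-Hochberg adjustment over all genes tested, with calls made where the adjusted p was under 0.1 and the log2 fold change (αGlu over Ctr) went beyond 1. Of the 33 members, 31 had enough reads to be tested, and their adjusted p ran from 0.149 to 0.98. At an unadjusted p under 0.05 stood 11 of them, where 24.7% of all genes tested did, 2943 in all. The other tools run gave 0 called genes with limma-voom and 1117 with DESeq2. DESeq2 called 4 members, against 8.13% of the genes it tested: Sod2 and Prdx5 higher (4.21% of its genes were), and Nqo1 and Mgst3 lower (3.92% were).

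The members whose groups did not overlap were mostly lower in αGlu. They were 12 of the 31 tested (38.7%), against 30.1% of all genes tested. In 11 members (35.5%) every αGlu library lay below every Ctr library, where 16% of all genes tested did, and in 1 member (3.23%), Gsr, every αGlu library lay above, where 14.2% of all genes did. The 11 were Nqo1, Mgst3, Gstp1 and Gsto1 of electrophile detoxification, Srxn1, Txnrd1, Txnrd2 and Txn2 of the thioredoxin and peroxiredoxin cycle, Gss of glutathione synthesis, Gpx1 and Sod1. The median log2 fold change over the 31 members was -0.10, against 0.02 over all genes tested, with 14 members above 0 and 17 below. These are counts over a named list and carry no test of the list.

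Without αGlu 1, 10 of the 32 members then tested were called (31.2%), against 18.6% of all genes tested. Higher in αGlu 2 and 3 were 4 (12.5%, against 8.05% of all genes): Sod2, Prdx5, Slc7a11 and Gsta3. Lower were 6 (18.8%, against 10.5% of all genes): Cat, Srxn1, Nqo1, Mgst3, Gstp1 and Sod3. Sod3 entered this fit only through its reads in Ctr. With no limit on the fold change the count was 21 members (65.6%, against 49.1% of all genes), 6 higher where 23.5% of all genes were and 15 lower where 25.6% were. By values alone, αGlu 2 and 3 both lay above the Ctr range in 8 members, where 33.5% of all genes tested did. Both lay below it in 15 members, where 32.3% of all genes did. In either direction 65.7% of all genes tested did so.

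**Figure D1:**
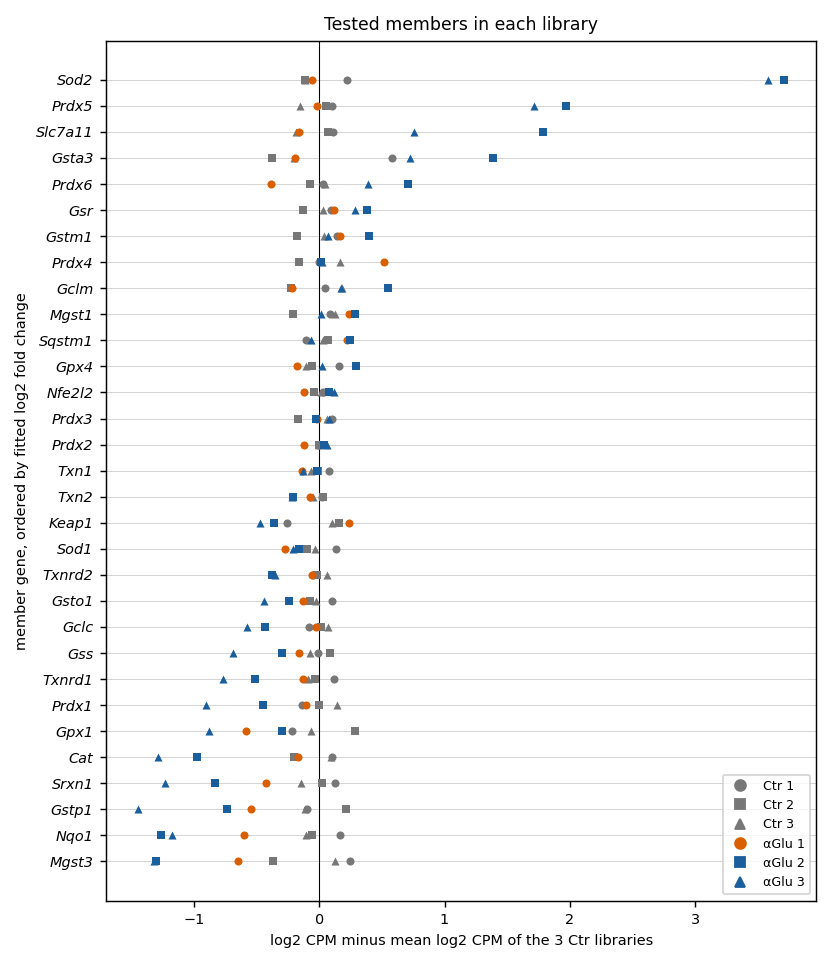
Log2 CPM of the 31 tested members in each of the 6 libraries, as the difference from the Ctr mean of the same gene, ordered by the fitted log2 fold change of αGlu over Ctr. Sod2, Prdx5 and Slc7a11 stand high in αGlu 2 and 3 and not in αGlu 1, while Nqo1, Mgst3, Gstp1 and Srxn1 lie below 0 in all 3 αGlu libraries.

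By level per transcript length (the deposited TPM, mean of the 3 Ctr libraries ± SD), the peroxide-removing enzymes headed the list. Prdx1, the main cytosolic peroxiredoxin, stood at 1913 ± 162 TPM, Gpx1 at 776 ± 131 and Cat at 626 ± 78.8, followed by Sqstm1, Txn1 and Gpx4. Nfe2l2 was 10th with 235 ± 9.997 TPM and Keap1 21st with 53.8 ± 7.19. Of the 32 pairs of neighbours in this order, 20 overlapped in their Ctr ranges, so that most neighbouring ranks are not separated by these libraries. At the lower end stood Gsta3 with 1.45 ± 0.592 TPM, Sod3 with 0.603 ± 0.461 and Gsta4 with 0.168 ± 0.203. Sod3, the secreted superoxide dismutase, and Gsta4, an alpha-class glutathione transferase, were the members with too few reads to test. Sod3 had 29, 5 and 15 reads in Ctr 1 to 3 and 4, 0 and 5 in αGlu 1 to 3, and Gsta4 had 0 to 4 reads in any library. Sod2 moved furthest in this order, from the 27th place in the Ctr mean to the 11th in both αGlu 2 and αGlu 3.

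**Figure D2:**
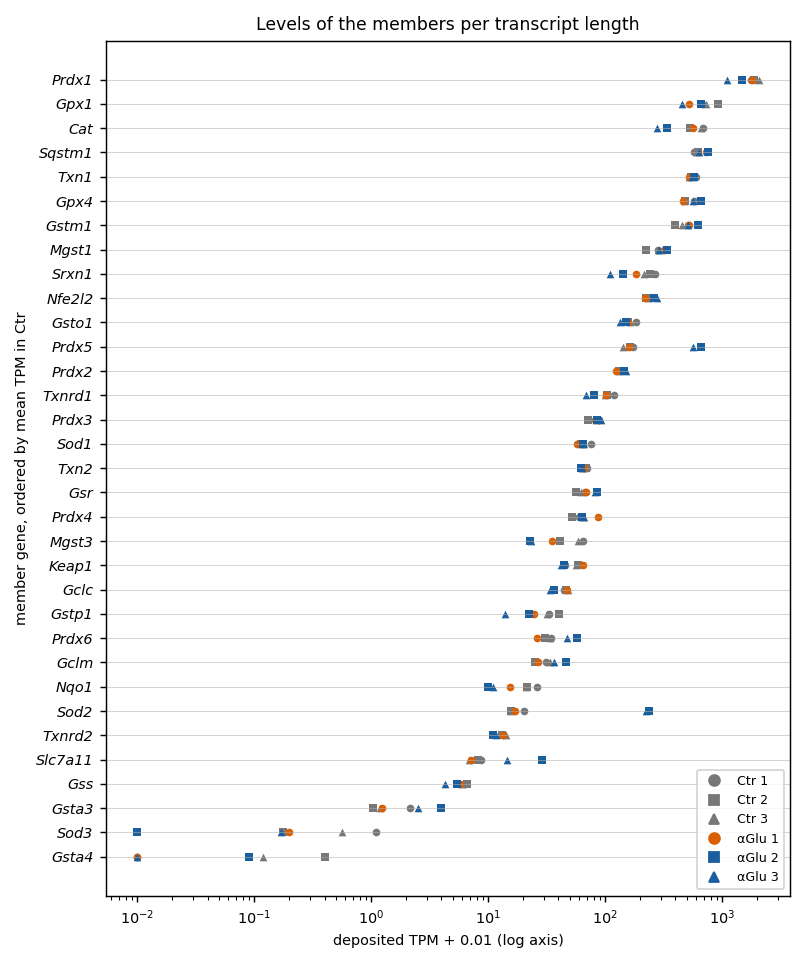
Deposited TPM of the 33 members in each library on a log axis, ordered by the Ctr mean, with a small constant added so that zeros can be drawn. Prdx1 is the most abundant member in Ctr at 1913 TPM and Gsta4 the least at 0.168, and Sod2 and Prdx5 lie above their Ctr range in αGlu 2 and 3.

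The transcription factor and its sensor showed no difference that passed the test. Nfe2l2 (chr2:75675513-75704641, minus strand) measured 302, 286 and 298 CPM in Ctr 1 to 3 and 271, 312 and 320.5 in αGlu 1 to 3. The log2 fold change was 0.03 ± 0.10 (SE, n = 3 and 3), with an adjusted p of 0.869 by edgeR's quasi-likelihood test, and 0.10 without αGlu 1 (adjusted p = 0.387). αGlu 1 lay below and αGlu 2 and 3 above the whole Ctr range, by small margins. Keap1 (chr9:21229730-21239361, minus strand), the adaptor that restrains NRF2, measured 69.6, 93.0 and 89.1 CPM in Ctr and 98.1, 64.8 and 60.0 in αGlu. Here αGlu 1 was the highest of the 6 libraries and αGlu 2 and 3 the lowest, so the groups overlapped, with a log2 fold change of -0.18 ± 0.22 (adjusted p = 0.620) and of -0.43 without αGlu 1 (adjusted p = 0.0482, within the fold limit). Sqstm1, which encodes p62, an autophagy receptor that can pull KEAP1 away from NRF2 and is itself an NRF2 target, stood at 629 to 710.0 CPM in Ctr and 644 to 799 in αGlu, and its groups overlapped.

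Nqo1 had the lowest adjusted p of the members. It encodes the quinone reductase that is a much-used reporter of NRF2 activity (chr8:107388225-107403206, minus strand). It measured 13.2, 11.3 and 10.9 CPM in Ctr and 7.74, 4.87 and 5.17 in αGlu, and the groups did not overlap. The log2 fold change was -1.003 ± 0.21, with an adjusted p of 0.149 by edgeR's quasi-likelihood test, so it missed the threshold, and it was -1.24 without αGlu 1 (adjusted p = 0.000895, called). αGlu 1 lay about midway between the Ctr mean and αGlu 2 and 3, at a fraction of 0.49 of their log2 distance.

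Of the glutathione transferases tested, Mgst3, Gstp1 and Gsto1 ran the same way as Nqo1. Gsta3, Gstm1 and Mgst1 had log2 fold changes above 0. Mgst3, a microsomal glutathione transferase and peroxidase, measured 23.2, 15.2 and 21.4 CPM in Ctr and 12.5, 7.89 and 7.80 in αGlu, a log2 fold change of -1.09 ± 0.25 (edgeR adjusted p = 0.156, and -1.35 with 0.00268 without αGlu 1). Gstp1, the pi-class glutathione transferase, measured 16.8, 20.8 and 16.6 CPM in Ctr and 12.3, 10.8 and 6.56 in αGlu, with -0.87 ± 0.25 (adjusted p = 0.159, and -1.06 with 0.012 without αGlu 1). Both genes were lower in all 3 αGlu libraries than in any Ctr library, with αGlu 1 at fractions of 0.49 and 0.50 of the distance. Gsto1, an omega-class transferase that also reduces dehydroascorbate, differed less, with 121, 107 and 111 CPM in Ctr and 103, 95.5 and 83.0 in αGlu (log2 fold change -0.27 ± 0.11, adjusted p = 0.200, and -0.34 with 0.0372 without αGlu 1). Gsta3, an alpha-class transferase, was near the lower limit of the data with 3.0, 1.5 and 1.72 CPM in Ctr and 1.72, 5.31 and 3.33 in αGlu, and its groups overlapped (0.75 ± 0.48, adjusted p = 0.344, and 1.06 with 0.0598 without αGlu 1). The well expressed Gstm1 and Mgst1, a mu-class and a microsomal transferase, had log2 fold changes of 0.21 ± 0.13 and 0.18 ± 0.13, and neither passed the test.

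In the thioredoxin arm, thioredoxin reductase passes electrons from NADPH to thioredoxin and on to the peroxiredoxins. Of its 5 members other than the peroxiredoxins, 4 were lower in αGlu with no overlap, where 16% of all genes tested were. Of the 6 peroxiredoxins, 0 were. Srxn1 encodes sulfiredoxin, which repairs overoxidised peroxiredoxins. It measured 245, 228 and 203 CPM in Ctr and 167, 126 and 95.5 in αGlu, a log2 fold change of -0.80 ± 0.21 (edgeR adjusted p = 0.157), and of -1.03 without αGlu 1 (adjusted p = 0.00276, called). Txnrd1, the cytosolic thioredoxin reductase, measured 276, 248 and 238 CPM in Ctr and 232, 178 and 148 in αGlu, with -0.45 ± 0.18 (adjusted p = 0.197) and -0.64 without αGlu 1 (adjusted p = 0.00654, within the fold limit). In both genes αGlu 1 was the αGlu library nearest to Ctr. The mitochondrial pair differed less. Txnrd2, the mitochondrial reductase, measured 19.2, 19.6 and 20.8 CPM in Ctr and 19.03, 15.2 and 15.5 in αGlu (-0.26 ± 0.11, adjusted p = 0.219, and -0.37 with 0.0142 without αGlu 1), and Txn2, the mitochondrial thioredoxin, 95.9, 96.6 and 91.5 CPM in Ctr and 90.0, 81.6 and 81.1 in αGlu (-0.17 ± 0.08, adjusted p = 0.232, and -0.22 with 0.0521 without αGlu 1). In Txnrd2, αGlu 1 lay only just below Ctr 1. Txn1, the cytosolic thioredoxin, had a log2 fold change of -0.10 ± 0.09 and overlapping groups.

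**Figure D3:**
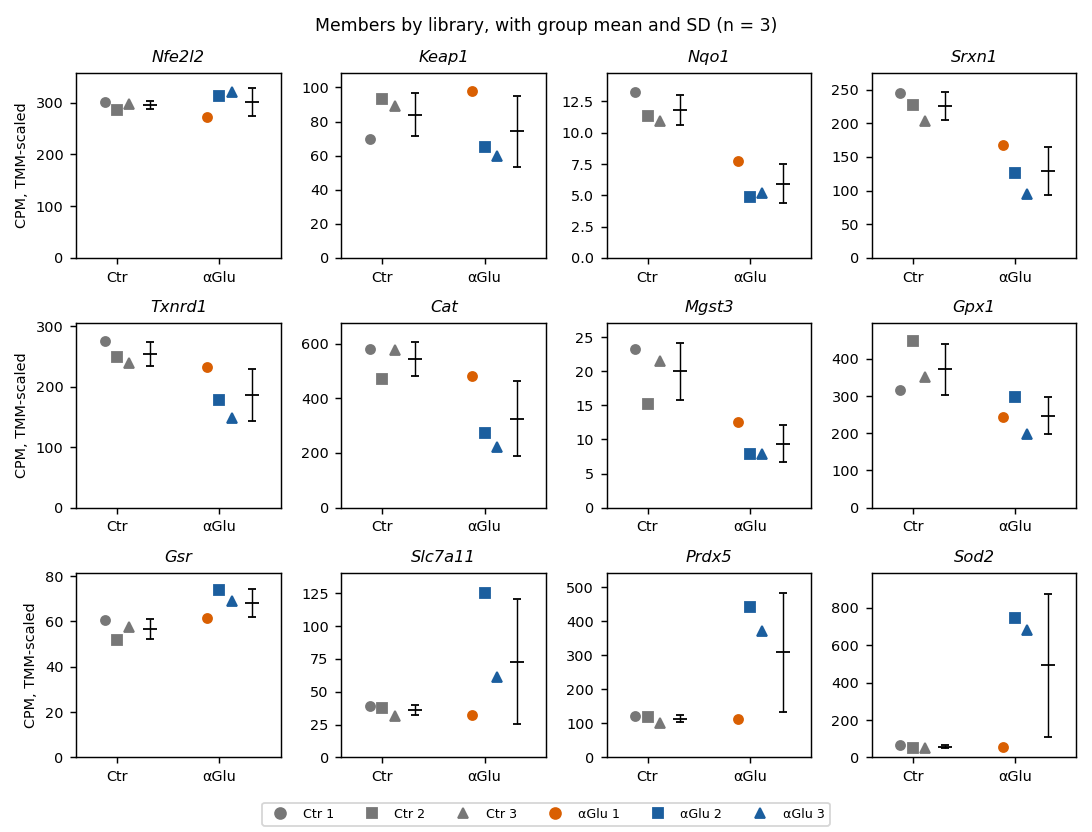
TMM-scaled CPM of 12 members in each library, with a point per library and the mean ± SD of the 3 libraries of each group on axes that begin at 0. Sod2, Prdx5 and Slc7a11 are high in αGlu 2 and 3 and inside or close to the Ctr range in αGlu 1, while Nqo1, Srxn1, Mgst3, Txnrd1 and Gpx1 are lower in every αGlu library than in any Ctr library.

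The 6 peroxiredoxins did not share a direction. Prdx5, a peroxiredoxin found in mitochondria, peroxisomes and cytosol (chr19:6906697-6910106, minus strand), measured 122, 118 and 102 CPM in Ctr and 112, 443 and 371 in αGlu. αGlu 1 lay inside the Ctr range and αGlu 2 and 3 were 3.58 times the Ctr mean. The log2 fold change was 1.44 ± 0.49 (edgeR adjusted p = 0.170), and 1.84 without αGlu 1 (adjusted p = 0.000136, called). Exons of Trmt112 on the opposite strand overlap 19.1% of the exon bases of Prdx5, and Trmt112 had 3761 reads over the 6 libraries against 33845 for Prdx5. Prdx1 ran the other way, with 1749, 1919 and 2126 CPM in Ctr and 1789.8, 1408 and 1028 in αGlu, but αGlu 1 lay inside the Ctr range, so the groups overlapped (-0.45 ± 0.24, adjusted p = 0.272, and -0.67 with 0.0203 without αGlu 1, within the fold limit). Prdx6, which uses glutathione and also has phospholipase activity, measured 53.8, 49.96 and 54.4 CPM in Ctr and 40.4, 86.3 and 68.8 in αGlu, with αGlu 1 the lowest and αGlu 2 and 3 the highest of all libraries (0.31 ± 0.27, adjusted p = 0.473, and 0.55 with 0.00937 without αGlu 1, within the fold limit). Prdx2, Prdx3 and Prdx4 had log2 fold changes of -0.00, 0.01 and 0.20, and those of Prdx2 and Prdx3 changed sign under other settings.

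Among the enzymes that remove hydrogen peroxide and lipid peroxides, Gpx1 lay below Ctr in every αGlu library, and Cat only in αGlu 2 and 3. Neither passed the test with all 6 libraries. Gpx1, the cytosolic glutathione peroxidase, measured 316, 447 and 352 CPM in Ctr and 245, 298 and 199 in αGlu, without overlap. Here αGlu 1 stood level with αGlu 2 and 3, at a fraction of 0.99 of their distance, and the log2 fold change was -0.59 ± 0.20 (edgeR adjusted p = 0.174) and -0.58 without αGlu 1 (adjusted p = 0.0781, within the fold limit). Cat, the peroxisomal catalase, measured 579, 470.3 and 577 CPM in Ctr and 479.7, 275 and 221 in αGlu. αGlu 1 lay inside the Ctr range and αGlu 2 and 3 well below it, at 0.457 of the Ctr mean, with a log2 fold change of -0.74 ± 0.30 (adjusted p = 0.204) and -1.13 without αGlu 1 (adjusted p = 0.0018, called). Gpx4, the peroxidase of membrane lipid peroxides whose loss leads to ferroptosis, was at 271 to 326 CPM in Ctr and 258 to 356 in αGlu, and its groups overlapped.

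The 2 superoxide dismutases with enough reads differed. Sod2, the manganese enzyme of the mitochondrial matrix (chr17:13006846-13040063, plus strand), measured 66.3, 52.6 and 52.4 CPM in Ctr and 54.6, 743 and 679 in αGlu. αGlu 2 and 3 were 12.5 times the Ctr mean, and αGlu 1, at 0.957 of that mean, lay inside the Ctr range. The log2 fold change was 3.11 ± 0.90 (edgeR adjusted p = 0.159), and 3.64 without αGlu 1 (adjusted p = 2.27e-05, called), the largest of any member in either fit. Sod1, the cytosolic copper and zinc enzyme, measured 98.4, 83.6 and 87.7 CPM in Ctr and 74.0, 80.1 and 77.4 in αGlu. All 3 αGlu libraries were lower than any Ctr library, by a small step (-0.22 ± 0.09, adjusted p = 0.199, and -0.19 with 0.146 without αGlu 1), and αGlu 1 was the lowest of them. Beside Sod2, the summed LPS and interferon-γ response genes given above were also highest in αGlu 2 and 3. In αGlu 1 that sum was above Ctr, and Sod2 was inside the Ctr range. Of the 5 genes of that list with enough reads to test, αGlu 1 lay above Ctr in 2, inside its range in 2 and below it in 1. A link between Sod2 and these genes was not tested.

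In glutathione supply, the importer and the synthetic enzymes differed. Slc7a11, the cystine importer of system xc- (chr3:49892526-50443614, minus strand), measured 39.1, 38.0 and 31.9 CPM in Ctr and 32.3, 125 and 61.2 in αGlu. αGlu 1 lay inside the Ctr range, so the groups overlapped, and αGlu 2 stood well above αGlu 3, with a log2 fold change of 1.01 ± 0.47 (edgeR adjusted p = 0.236) and 1.36 without αGlu 1 (adjusted p = 0.0107, called). Gclc, the catalytic subunit of glutamate-cysteine ligase, measured 54.8, 58.8 and 60.9 CPM in Ctr and 57.0, 43.0 and 38.9 in αGlu, and Gclm, its modifier subunit, 64.6, 53.4 and 70.9 in Ctr and 53.9, 91.2 and 70.6 in αGlu. The subunits thus had log2 fold changes of opposite sign, -0.33 ± 0.15 and 0.19 ± 0.21, with overlapping groups in both and adjusted p of 0.235 and 0.571. Without αGlu 1 they were -0.51 (adjusted p = 0.00465, within the fold limit) and 0.36 (adjusted p = 0.114). Gss, glutathione synthetase, which adds the last amino acid, measured 12.3, 13.1 and 11.8 CPM in Ctr and 11.1, 10.03 and 7.66 in αGlu without overlap (-0.37 ± 0.16, adjusted p = 0.209, and -0.49 with 0.0372 without αGlu 1). Gsr, glutathione reductase, which regenerates reduced glutathione, was the member above Ctr in every αGlu library, with 60.5, 51.8 and 57.7 CPM in Ctr and 61.4, 73.8 and 68.8 in αGlu. Its log2 fold change was 0.26 ± 0.10 (adjusted p = 0.190, and 0.33 with 0.0302 without αGlu 1), and the gap between Ctr 1 and αGlu 1 closed with upper-quartile scaling.

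The members that were higher and those that were lower in αGlu 2 and 3 differed in the side of the Ctr mean on which αGlu 1 stood. Of the 14 members in which αGlu 2 and 3 lay at least 0.5 log2 from the Ctr mean, 9 were lower, and in all 9 αGlu 1 was on the same side of the Ctr mean, at a median fraction of 0.415 of the distance. The other 5, Sod2, Prdx5, Slc7a11, Gsta3 and Prdx6, were higher, and in 0 of them was αGlu 1 on that side (median fraction -0.126). Over all genes tested that met the same limit, αGlu 1 was on the side of αGlu 2 and 3 in 74.8% of the 2231 lower and 66.8% of the 1918 higher genes, with median fractions of 0.188 and 0.142. αGlu 1 lay inside the Ctr range in Sod2, Prdx5, Slc7a11 and Gsta3 of the higher members, and in Prdx1, Cat and Gclc of the lower. In these genes its side of the mean is within the spread of Ctr. This is a description of 14 genes in 1 library, with no test. Of the 31 members, αGlu 1 lay inside the Ctr range in 9, where it did so in 42.6% of all genes tested. It lay below that range in 16 members and above it in 6. The shares of all genes tested below and above were not computed, so this split has nothing to be compared with.

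The wider pathway was read from 4 further lists. With all 6 libraries edgeR's quasi-likelihood test called none of their genes, and 0% of all genes. DESeq2, which called 4.21% of its genes higher and 3.92% lower, called 0 regulators, 0 further targets higher and 2 lower (Ephx1 and Osgin1), 3 thiol and peroxide enzymes higher (Glrx, Sesn2 and Selenow) and 2 lower (Gpx3 and Sesn1), and 5 glutathione transferases higher and 0 lower. Over the 14 regulators and partners of NRF2 the median log2 fold change was 0.07, with 3 genes at an unadjusted p under 0.05, where 24.7% of all genes stood. Without αGlu 1 no gene was called in either direction, and with no limit on the fold change 5 were higher and 3 lower at an adjusted p under 0.1, where 23.5% and 25.6% of all genes were. The full list of 14 covers CUL3, the small MAF proteins, BACH1, which competes with NRF2, and the kinases and ligases of its second degradation route. In 2 of these 14 genes all αGlu libraries lay above Ctr, where 14.2% of all genes did, and in 0 below. Rbx1, the RING subunit of the CUL3 ligase, measured 49.7, 52.4 and 56.9 CPM in Ctr and 65.4, 66.3 and 67.6 in αGlu (0.33 ± 0.07, edgeR adjusted p = 0.156, and 0.33 with 0.0194 without αGlu 1). Park7, which encodes DJ-1, a protein that protects against oxidants, measured 33.3, 30.3 and 32.6 CPM in Ctr and 34.3, 48.0 and 53.2 in αGlu (0.50 ± 0.17, adjusted p = 0.170, and 0.65 with 0.00148 without αGlu 1).

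Over the 20 further NRF2 targets the median log2 fold change was -0.28, with 16 below 0, 8 lower and 2 higher without overlap (16% and 14.2% of all genes), and 8 at an unadjusted p under 0.05 (24.7% of all genes). Without αGlu 1, 3 were called higher (Hmox1, Fth1 and Abcc1, where 8.05% of all genes were) and 3 lower (Idh1, Osgin1 and Ephx1, where 10.5% were). Ephx1, the microsomal epoxide hydrolase, measured 81.1, 73.5 and 70.6 CPM in Ctr and 33.02, 7.86 and 5.68 in αGlu (-2.29 ± 0.68, edgeR adjusted p = 0.160, and -3.47 with 3.87e-05 without αGlu 1). Osgin1, an oxidative stress-induced growth inhibitor, measured 50.3, 46.1 and 48.8 CPM in Ctr and 33.5, 16.7 and 19.9 in αGlu (-1.05 ± 0.26, adjusted p = 0.156, and -1.41 with 0.000191 without αGlu 1). Both lay lower in every αGlu library, as Nqo1 and Srxn1 did. Fth1, the heavy chain of the iron store ferritin, went the other way, with 10550.3, 11325 and 11145 CPM in Ctr and 14066, 23638 and 23365 in αGlu (0.89 ± 0.32, adjusted p = 0.180, and 1.09 with 0.000546 without αGlu 1). Hmox1, heme oxygenase 1, is named after its values were seen, as a much-used NRF2 target that is also controlled by BACH1. It measured 529.8, 678 and 542 CPM in Ctr and 529.7, 1448 and 995 in αGlu, and its groups overlapped through αGlu 1 (0.77 ± 0.37, adjusted p = 0.243, and 1.06 with 0.00587 without αGlu 1).

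Of 27 further thiol, glutathione and peroxide enzymes, 22 were tested, with a median log2 fold change of -0.06, 3 higher and 8 lower without overlap (14.2% and 16% of all genes) and 7 at an unadjusted p under 0.05 (24.7% of all genes). Gpx3, the secreted glutathione peroxidase, measured 29.0, 16.5 and 19.8 CPM in Ctr and 10.5, 0.849 and 0.403 in αGlu (-2.54 ± 1.13, edgeR adjusted p = 0.224, and -5.08 with 0.00025 without αGlu 1). Sesn1, a stress-responsive sestrin, measured 158, 101 and 113 CPM in Ctr and 86.8, 25.03 and 30.9 in αGlu (-1.39 ± 0.51, adjusted p = 0.181, and -2.15 with 0.000739 without αGlu 1). Selenow, a small selenoprotein, measured 7.90, 15.1 and 15.6 CPM in Ctr and 18.5, 33.5 and 30.6 in αGlu (1.10 ± 0.34, adjusted p = 0.160, and 1.31 with 0.0101 without αGlu 1). Without αGlu 1 these 3 genes were called, in the directions given, among 4 genes called higher and 3 lower (8.05% and 10.5% of all genes), of which Chac1 entered that fit only through its reads in αGlu 2 and 3.

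The further glutathione transferases were low in level, and most of those tested had log2 fold changes above 0, where those of Gstp1 and Mgst3 were below 0. Of 16, 8 had enough reads, with a median log2 fold change of 1.16, 7 above 0, 3 higher and 0 lower without overlap (14.2% and 16% of all genes) and 5 at an unadjusted p under 0.05 (24.7% of all genes). Gstm5, of the mu class, measured 1.36, 0.919 and 1.58 CPM in Ctr and 2.06, 5.72 and 5.79 in αGlu (1.82 ± 0.46, edgeR adjusted p = 0.156, and 2.16 with 0.0012 without αGlu 1). Gstt2, of the theta class, measured 4.63, 3.84 and 4.73 CPM in Ctr and 4.99, 20.8 and 19.5 in αGlu (1.78 ± 0.52, adjusted p = 0.160, and 2.19 with 7.26e-05 without αGlu 1), and Mgst2, which is microsomal, 0.272, 0.460 and 0.325 in Ctr and 0.860, 1.79 and 0.916 in αGlu (1.75 ± 0.43, adjusted p = 0.156, and 1.92 with 0.0158 without αGlu 1). In all 3, αGlu 1 was the αGlu library nearest to Ctr. Without αGlu 1, 6 of the list were called higher and 0 lower (8.05% and 10.5% of all genes), and 1 of the 6, Gstt1, entered that fit only through its reads in αGlu 2 and 3, where it stood at 10.97 and 15.9 CPM against at most 0.125 in the other libraries.

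**Figure D4:**
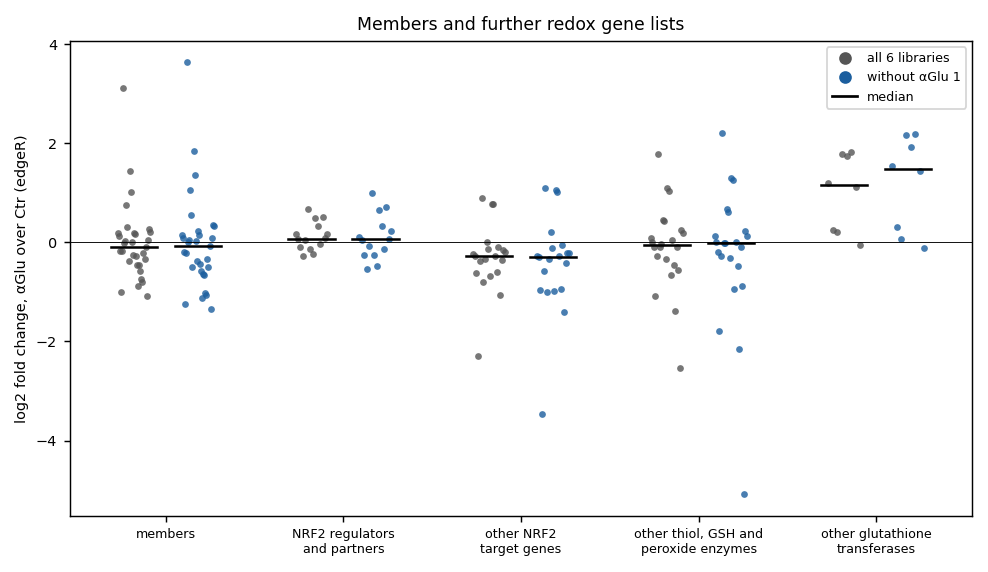
Fitted log2 fold change (αGlu over Ctr) of each tested gene of the members and of the 4 further lists, with all 6 libraries and without αGlu 1, and the median of each list as a line. With all 6 libraries the medians are -0.10 for the members, 0.07 for regulators, -0.28 for further targets, -0.06 for thiol, glutathione and peroxide enzymes and 1.16 for further glutathione transferases, and Sod2 is the highest member.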

How the data were processed

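Total RNA of 6 cultures was sequenced as stranded polyadenylated RNA libraries. The authors aligned the reads to GRCm38 in the QIAGEN portal and deposited, per gene and library, counts, TPM, RPKM and a normalised signal in which counts were divided by an effective library size. Here the deposited counts were tested and the deposited TPM were used to order genes by level, while the RPKM and the signal were used for no result. The row without a gene name (1 row) was left out. Counts were scaled with TMM factors, filtered by edgeR's filterByExpr (minimum count 10, minimum total 15) and fitted with edgeR's quasi-likelihood test (edgeR 4.0.16, R 4.3.3), with Benjamini-Hochberg adjustment over all genes tested and 2-sided tests. The SE of each log2 fold change is its size over the square root of the F value. CPM were computed from total counts and TMM factors. DESeq2 1.42.0 and limma 3.58.1 were run as alternatives, and the fit was tested on simulated data first. Total counts of 17912831 to 30386653 per library set the counting error, which was not computed apart from the spread between libraries.

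Full values are given for Nfe2l2, Keap1 and each member with no overlap between the groups or an absolute log2 fold change above 0.58, 19 in all, and from each further list for the 3 such genes without overlap that differed most. The 12 other tested members had log2 fold changes of -0.45 to 0.31 and adjusted p of 0.235 to 0.98. The members, lists, thresholds and the attention to αGlu 1 were chosen with earlier results of these data known. Gene positions are those of GENCODE on GRCm38, promoter letters those of RefSeq on GRCm38.p6. The study describes the libraries as independent experiments.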

Additional observations from a re-analysis of the deposited data

How the results depend on the processing

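Genes called numbered 0 with all 6 libraries, 1117 with DESeq2 and 0 to 2290 when a library was left out in turn, the 2290 only without αGlu 1. Members called numbered 0, 4 with DESeq2 and 0 to 10 with a library left out, the 10 only without αGlu 1. Both counts stayed at 0 with limma-voom, with RLE, upper-quartile or no scaling factors and with other filters on low counts. The median log2 fold change over the members was -0.10, -0.13 to -0.04 with a library left out, and -0.0112 with library size alone, where the median of all genes rose from 0.02 to 0.10. Members above Ctr in every αGlu library numbered 1, 0 with upper-quartile factors, 3 with library size alone and 8 without αGlu 1, an alternative chosen after seeing the data, where 33.5% of all genes did the same. Members below Ctr numbered 11, 11, 10 and 15 under the same settings, the last beside 32.3% of all genes. Small fold changes turned sign. With a library left out, Nfe2l2 ran from -0.0149 to 0.0951 (below 0 without αGlu 3), Gclm from -0.0115 to 0.359 (below 0 without αGlu 2), Prdx2 from -0.0365 to 0.0485 (above 0 without Ctr 1 or αGlu 1), Prdx3 from -0.0739 to 0.0702 (below 0 without Ctr 2 or αGlu 3) and Gpx4 from -0.0771 to 0.152 (below 0 without Ctr 3 or αGlu 2). Prdx2 was also 0.0146 with upper-quartile factors and 0.0841 with library size alone. Of 587 such comparisons over single genes, 547 kept direction and call, 10 turned sign and 30 gained a call, 12 of them with DESeq2 and 18 without αGlu 1. The cause was not tested.

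With the replicate number as a block, 17 genes and 0 members were called. Libraries with the same number deviated together at r of 0.0764, 0.0646 and 0.154, and those with different numbers at -0.112 to 0.0459. The paper used a paired test for the fragment level after this transfection. The labels do not say that equal numbers share an experiment, so the block is given as an alternative only. Whether the samples are paired cannot be settled from these libraries.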
